A study of Danio rerio with 2 samples.

Results

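Forkhead (Fox) genes encode transcription factors that share a winged-helix DNA-binding domain, and the letter in each name marks a subfamily. The members described here are all genes in the deposited count table whose symbol begins with fox, a subfamily letter from a to s and a digit, 57 of 32057 genes. Of these, 51 had 10 or more reads in at least 1 library and are called detected, and 6 are called undetected. Forkhead factors bind DNA through this domain, and some can open closed chromatin. Members are known for roles in mesoderm and vessels (FOXC, FOXF), gut endoderm (FOXA), insulin signalling (FOXO) and motile cilia (FOXJ1), and heart tissue uses only some of them.

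RNA was sequenced from dissected, flash-frozen hearts of Danio rerio, the zebrafish, at 96 hours after fertilisation. The labels give 1 library the genotype foxc1a nju18 and the other TU, a wild-type laboratory strain, so there was 1 library per genotype. The labels do not say what the nju18 allele changes in the transcript, whether the fish were homozygous, or how many hearts were pooled. The series title calls the foxc1a nju18 fish mutants. The libraries held 17467109 reads counted to genes (nju18-labelled) and 20049851 (TU-labelled).

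With 1 library per genotype there is no spread between replicates, so no test between genotypes was made and no difference has a replicate check. Levels are given in CPM, counts scaled to a common library size after TMM scaling, which adjusts for differences in library composition. Ratios are nju18-labelled over TU-labelled CPM with nothing added. Each ratio has an exact 95% counting interval, which covers counting error only and compares these 2 libraries, not the genotypes. A gene is called higher or lower when its ratio passes 2-fold. Scaling by total reads in place of TMM moves every log2 ratio by -0.29, so ratios a little above 1 fall below it. The median log2 ratio of all 19796 genes with 10 or more reads in either library was -0.06 with TMM scaling and -0.35 with total-count scaling.

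Heart markers were present in both libraries, and so were markers of other tissues. Cardiomyocyte markers (17 measured, none at 0 reads) summed to 27804 CPM in the nju18-labelled library and 9694 CPM in the TU-labelled library. Single genes weigh on such sums. myh7 alone had 6535 CPM in the nju18-labelled and 621 CPM in the TU-labelled library, and the median ratio of the list was 2.28. Skeletal muscle markers (17 measured, mylpfa at 0 reads in the TU-labelled library) summed to 15835 and 3816 CPM in the same order of libraries. Of these sums, myhz1.1 alone made up 3397 and 136 CPM, and the median ratio of the 16 detected was 2.97. Neuron and glia markers (18 measured, none at 0 reads) summed to 417 CPM in the nju18-labelled and 871 CPM in the TU-labelled library. In bulk tissue, fewer cells of a type and less RNA per cell cannot be told apart.

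foxc1a, the gene named in the genotype, was read in both libraries and had the higher level in the nju18-labelled one. Zebrafish foxc1a is known for roles in somites, blood vessels and the anterior eye. foxc1a (ENSDARG00000091481) had 798 reads in the nju18-labelled library and 629 in the TU-labelled library, or 50.5 and 28.4 CPM. The ratio was 1.78 (interval 1.60 to 1.98), under the 2-fold rule. Among all genes with 10 or more reads in either library, 17.3% had a ratio at least as high. The authors' deposited table gives foxc1a a log2 fold change of 0.80 with an FDR of 0.819 and no call. A gene count does not show a small change of sequence, so this level does not check the labels. In RefSeq's annotation of the GRCz12tu assembly, foxc1a overlaps znf1014 and the non-coding gene LOC141377579. znf1014 also overlaps foxf2a and foxq1a there, and LOC137488655, a non-coding gene, overlaps foxc1b, foxf2b and foxq1b. These overlaps are of whole gene spans, in an assembly other than the GRCz11 build that the authors named. The sources used here do not say whether the authors counted by strand, so it is not known whether overlapping genes shared reads.

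The paralog foxc1b stood on the other side of 1. foxc1b (ENSDARG00000055398) had 769 reads in the nju18-labelled library and 1677 in the TU-labelled library, or 48.7 and 75.6 CPM. Its ratio was 0.644 (interval 0.590 to 0.702). The copies therefore had near-equal read numbers in the nju18-labelled library only. foxc1a took 50.9% of the reads of the pair there (exact interval 48.4% to 53.4%), against 27.3% in the TU-labelled library (25.5% to 29.1%). Per length, in the deposited FPKM (reads scaled to library size and gene length), foxc1a stood at 21.0 and foxc1b at 22.5 in the nju18-labelled library. In the TU-labelled library foxc1a stood at 14.4 FPKM and foxc1b at 42.8 FPKM. Their summed FPKM, which carries total-count scaling, was 43.5 in the nju18-labelled and 57.2 in the TU-labelled library. With TMM scaling, and not per length, the pair summed to 99.2 CPM in the nju18-labelled and 104 CPM in the TU-labelled library. The paralogs share a conserved DNA-binding domain, so the authors' assignment of reads to each copy remains uncertain, here and in the other pairs.

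Both foxc1 genes lie beside a foxf2 and a foxq1 gene, and the copies in these neighbourhoods differed in opposite directions. In RefSeq's order of protein-coding genes, foxc1a is followed by ftr93, foxf2a and foxq1a, and foxq1b and foxf2b come just before foxc1b. foxq1a had the highest FPKM of all forkhead genes in both libraries. It had 1077 reads in the nju18-labelled library and 3814 in the TU-labelled library, or 68.2 and 172 CPM. Its ratio was 0.397 (interval 0.370 to 0.424), so foxq1a was lower by 2.52 times, on the other side of 1 from its neighbour foxc1a. foxq1b, the copy beside foxc1b, had 54.7 CPM in the nju18-labelled and 37.8 CPM in the TU-labelled library, a ratio of 1.45 (interval 1.31 to 1.59). foxq1a thus supplied 55.5% of the reads of its pair in the nju18-labelled library (exact interval 53.2% to 57.7%), against 82.0% in the TU-labelled library (80.8% to 83.1%). In the mouse, Foxq1 is known for hair structure and stomach mucus.

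The foxf2 copies differed less. FOXF factors are known for the mesenchyme around the gut and for cells of the vessel wall. foxf2a had 23.9 CPM in the nju18-labelled and 17.6 CPM in the TU-labelled library, a ratio of 1.36 (interval 1.18 to 1.57). foxf2b had 4.31 CPM in the nju18-labelled and 4.83 CPM in the TU-labelled library, and its interval (0.649 to 1.22) held 1. foxf1, at a separate locus, had 8.48 CPM in the nju18-labelled and 14.7 CPM in the TU-labelled library, a ratio of 0.577 (interval 0.468 to 0.708). Other genes of the same neighbourhoods went either way as well. mylk4a, next to foxc1a, had a ratio of 1.95 and dusp22b, beyond foxq1a, 2.76. ftr93, on the other side of foxc1a, stood at 0.234, with 6 reads in the nju18-labelled library and 36 in the TU-labelled library. gmds, next to foxc1b, stood at 0.502 and exoc2, beyond foxq1b, at 2.79.

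**Figure D1:**
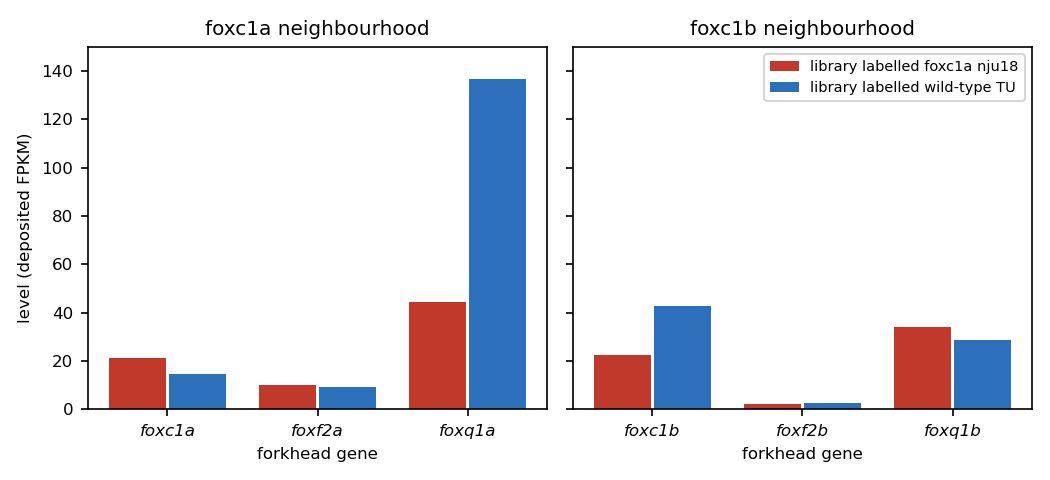
Deposited FPKM (vertical axis) of the foxc1, foxf2 and foxq1 genes of the foxc1a neighbourhood (left) and the foxc1b neighbourhood (right), with the library labelled foxc1a nju18 in red and the library labelled wild-type TU in blue, 1 library each and so no error bars. foxq1a stands at 44.3 FPKM in the nju18-labelled and 137 FPKM in the TU-labelled library, and foxc1b at 22.5 and 42.8 FPKM, while foxc1a, foxf2a and foxq1b are higher in the nju18-labelled library.

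Over the detected forkhead genes, more were lower than higher in the nju18-labelled library. Of 51 detected members, 2 were at least 2-fold higher, foxi1 and foxe3, and 17 at least 2-fold lower. Among all 19796 genes past the same read filter, 13.5% were higher and 20.3% lower, 33.8% in either direction. The forkhead shares were 3.92% higher and 33.3% lower. With total-count scaling the forkhead counts were 2 higher and 21 lower, beside 9.25% and 27.0% of all genes. The counting interval lay wholly beyond 2-fold for 1 higher member and 10 lower ones, beside 6.6% and 9.38% of all genes. The median log2 ratio was -0.40, beside -0.06 over all genes.

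Members that passed the filter through 1 library alone entered by being read more there, so these counts are descriptions and not support for a difference. 6 members passed only through the TU-labelled library and 1 only through the nju18-labelled one. Among those 6, foxq2, foxl2a and foxp3a were counted as lower, while foxh1 and foxn2a did not pass 2-fold. The TU-labelled library held more reads, and 24121 genes had a read there against 22795 in the nju18-labelled library. The same counts over all genes were not computed. With a filter on the summed reads, chosen after seeing the data (20 or more over both libraries), 48 members remained, 2 higher and 16 lower, beside 12.5% and 18.5% of all genes. Just short of the 2-fold limit were foxa2 at 1.996 and foxn4 at 0.5007, and past it lay foxn2b at 0.451. The authors' deposited table called 10 forkhead genes lower, all among the 17, and 1 higher, foxi1. In the whole of the authors' deposited table, 7.63% of 23256 genes were called lower and 4.24% higher.

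**Figure D2:**
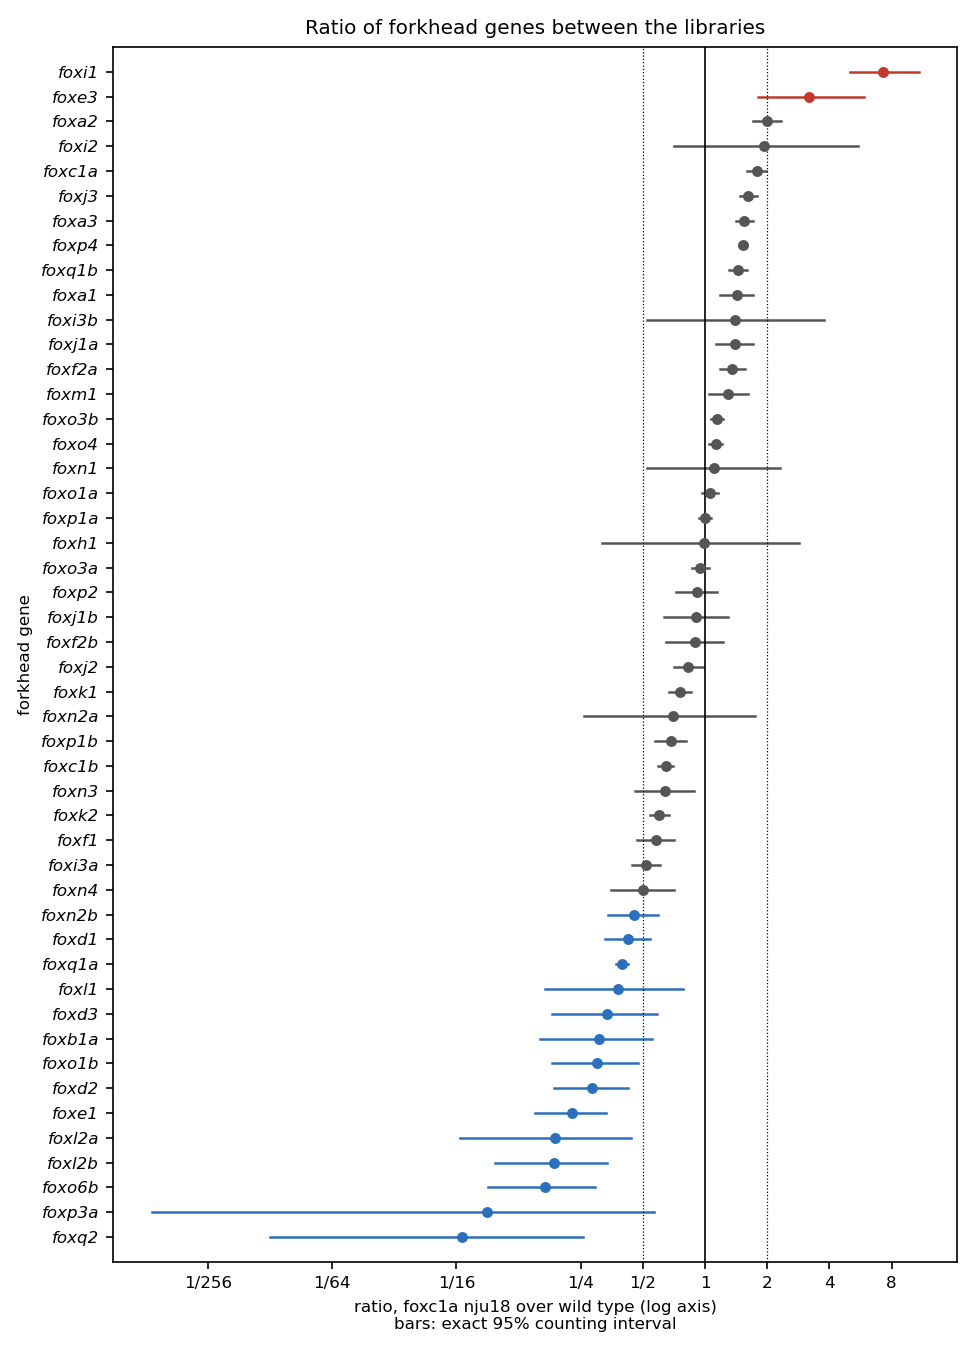
Ratio of each of 48 detected forkhead genes, nju18-labelled over TU-labelled library (horizontal log axis), with exact 95% counting intervals as bars, a solid line at 1 and dotted lines at 2-fold in each direction. The 2 red genes, foxi1 and foxe3, are at least 2-fold higher and the 14 blue genes drawn at least 2-fold lower. The widest intervals belong to genes with few reads, such as foxp3a.

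Lower members were found at low and at higher levels. Split by the higher of the CPM values, 34 detected members had 5 CPM or more in either library, 8 of them lower and 1 higher, beside 12.9% lower and 11.3% higher among all such genes. The other 17 members held 9 of the lower ones and 1 higher one. The share over all genes was not computed for that range, and the nearest one is that of the mean split, given next. A split by the mean of both CPM values is partly set by the difference itself, since a lower gene has a lower mean. By that split, 22 detected members had a mean under 5 CPM. Of these, 12 were lower by the 2-fold rule and 1 higher, where all genes of that range had 33.4% lower and 17.4% higher. Of the 29 members with a mean of 5 CPM or more, 5 were lower and 1 higher, beside 10.6% lower and 10.6% higher among all such genes. The median log2 ratio was -1.23 in the low range and -0.01 in the high range. All forkhead genes together summed to 1188 CPM in the nju18-labelled and 1245 CPM in the TU-labelled library. Per length, and with the total-count scaling of the deposited values, they summed to 339 FPKM in the nju18-labelled and 512 FPKM in the TU-labelled library, where foxq1a alone stood at 44.3 and 137 FPKM in that order.

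**Figure D3:**
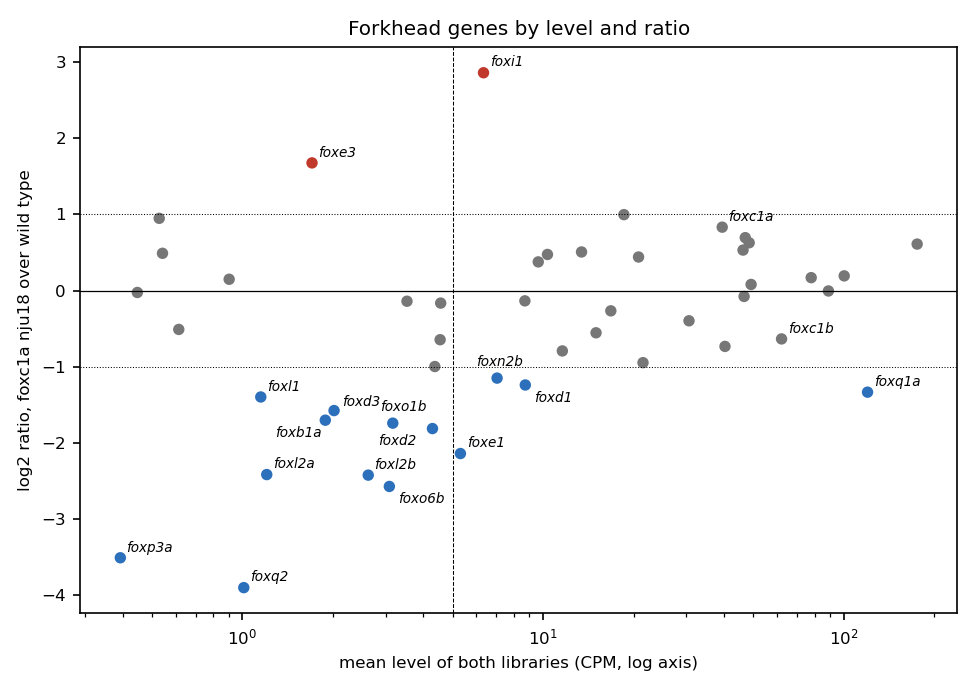
Log2 ratio of each of 48 detected forkhead genes (vertical axis) against its mean CPM over both libraries (horizontal log axis), with a dashed line at 5 CPM and dotted lines at 2-fold. Blue genes are at least 2-fold lower and red ones higher in the nju18-labelled library. To the right of the dashed line 4 of the 28 genes drawn are blue, and to the left 10 of 20.

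foxq2, which in zebrafish drives the blue cone opsin gene opn1sw2, had 2 reads in the nju18-labelled library and 42 in the TU-labelled library. Its ratio was 0.0669 (interval 0.00784 to 0.257), the lowest of all detected members. foxq2 passed the read filter only through the TU-labelled library, a way of entry that favours low ratios. opn1sw2 itself had 47 reads in the nju18-labelled library and 1477 in the TU-labelled library, a ratio of 0.0447, and is named here after its value was seen. foxn4, known for retinal progenitors and, in zebrafish, for the atrioventricular canal of the heart, had 2.91 CPM in the nju18-labelled and 5.82 CPM in the TU-labelled library. Its ratio of 0.501 (interval 0.350 to 0.706) did not pass the 2-fold rule.

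foxb1a, whose mouse counterpart marks the diencephalon and spinal cord, had 14 reads in the nju18-labelled library and 64 in the TU-labelled library, a ratio of 0.307 (interval 0.159 to 0.554). foxo6b, whose mammalian counterpart is mainly a brain gene, had 14 reads in the nju18-labelled library and 117 in the TU-labelled library, a ratio of 0.168 (interval 0.0891 to 0.293). Both thus lay past 2-fold on the lower side, like foxq2. foxe3, a lens gene, had 41 reads in the nju18-labelled library and 18 in the TU-labelled library, a ratio of 3.198 (interval 1.80 to 5.91). foxe1, its subfamily partner and a gene of the thyroid and pharynx, had 31 reads in the nju18-labelled library and 192 in the TU-labelled library, a ratio of 0.227 (interval 0.150 to 0.333).

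Markers of eye and forebrain were lower in the nju18-labelled library. Of 25 such genes, none at 0 reads in either library, 22 were lower by the 2-fold rule and 0 higher. The median log2 ratio was -2.65. Among all genes with 10 or more reads in either library, 20.3% were lower and 13.5% higher. The list summed to 370 CPM in the nju18-labelled library and 2986 CPM in the TU-labelled library. Its 3 genes with the most reads were photoreceptor opsin genes. opn1sw1 had 90.2 CPM in the nju18-labelled and 1087 CPM in the TU-labelled library, and rho, the rod opsin gene, had 73.0 and 606 CPM in that order. Of 18 neuron and glia markers, 10 were lower and 1 higher. The part of eye or brain tissue in the values of the forkhead genes of eye and brain was not tested.

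Thyroid and lens markers were pooled in the same list, and their link to either FOXE gene was not tested. Of 14 measured thyroid and lens genes, 2 were lower by the 2-fold rule and 0 higher, beside 20.3% and 13.5% of all genes. The median log2 ratio was -0.17. Among lens crystallin genes, the most read of the list, crybb1 had 1245 CPM in the nju18-labelled and 957 CPM in the TU-labelled library, and crygm2d1 had 19.9 and 403 CPM in that order. cryba1b had a ratio of 1.16. foxd2 is the next gene to foxe3 in RefSeq's order and lay on the opposite side of 1.

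The 3 detected FOXD genes were at least 2-fold lower, beside 20.3% of all genes with 10 or more reads in either library. Among all genes with a mean under 5 CPM, the range of foxd2 and foxd3, 33.4% were lower. FOXD factors act in neural crest, in the mesenchyme of the kidney and in the retina. foxd1 had 82 reads in the nju18-labelled library and 272 in the TU-labelled library, a ratio of 0.423 (interval 0.327 to 0.544). foxd2 had 30 reads in the nju18-labelled library and 148 in the TU-labelled library, a ratio of 0.285 (interval 0.186 to 0.424). foxd3, which keeps neural crest cells in their progenitor state, had 16 reads in the nju18-labelled library and 67 in the TU-labelled library, a ratio of 0.335 (interval 0.181 to 0.585). Of 12 neural crest and pigment genes, 2 were lower and 1 higher, beside 20.3% and 13.5% of all genes. Their median log2 ratio was 0.33. The crest gene snai2, with the most reads among them, had 47.9 CPM in the nju18-labelled and 159 CPM in the TU-labelled library, while snai1b stood at a ratio of 1.27.

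The 3 FOXL genes were low in level and at least 2-fold lower, where 33.4% of all genes with a mean under 5 CPM were lower. foxl2a and foxl2b, whose mammalian counterpart maintains the ovary and shapes the eyelid, had nearly the same ratio. foxl2a had 6 reads in the nju18-labelled library and 45 in the TU-labelled library, a ratio of 0.187 (interval 0.0653 to 0.440). It passed the read filter only through the TU-labelled library. foxl2b had 13 reads in the nju18-labelled library and 98 in the TU-labelled library, a ratio of 0.186 (interval 0.0958 to 0.334). foxl1, a gene of gut mesenchyme, had 10 reads in the nju18-labelled library and 37 in the TU-labelled library, a ratio of 0.380 (interval 0.168 to 0.778). Of 14 detected cartilage, bone and fin markers, 7 were lower, 0 higher and the other 7 not past 2-fold, beside 20.3% lower among all genes. The list had summed levels of 1543 CPM in the nju18-labelled and 4262 CPM in the TU-labelled library. The part of these tissues in the FOXD, FOXF and FOXL values was not tested.

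All 3 FOXA genes of the rule had ratios above 1 under every scaling tried, and none passed 2-fold with TMM scaling. FOXA factors are pioneer factors of endoderm, liver and pancreas, and foxa2 also marks the floor plate. foxa2 had 391 reads in the nju18-labelled library and 275 in the TU-labelled library, or 24.8 and 12.4 CPM, a ratio of 1.996 (interval 1.71 to 2.34). foxa3, among the 10 forkhead genes with the highest FPKM, had 58.9 CPM in the nju18-labelled and 38.1 CPM in the TU-labelled library, a ratio of 1.55 (interval 1.41 to 1.70). foxa1 had 15.8 CPM in the nju18-labelled and 11.1 CPM in the TU-labelled library, a ratio of 1.42 (interval 1.19 to 1.70).

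Endoderm, liver and gut markers also had a median ratio above 1. Of 21 detected genes, 8 were higher by the 2-fold rule and 4 lower, beside 13.5% and 20.3% of all genes. The median log2 ratio was 0.79. The list summed to 1448 CPM in the nju18-labelled library and 639 CPM in the TU-labelled library, hnf1ba being at 0 reads in both and ahsg1 in the nju18-labelled one. Its 3 genes with the most reads were all higher. vil1, of the gut brush border, stood at a ratio of 3.33, apoa1b, an apolipoprotein gene, at 3.79, and tfa, the transferrin gene, at 2.22. The 4 lower genes, named after their values were seen, were fabp6 at 0.0657, prss1 at 0.319, ela2 at 0.318 and cpa5 at 0.495. The part of gut and liver tissue in the FOXA values was not tested.

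foxi1 had the highest ratio of any forkhead gene. In zebrafish, foxi1 is needed for the otic placode and the jaw. It had 176 reads in the nju18-labelled library and 34 in the TU-labelled library, or 11.1 and 1.53 CPM. The ratio was 7.27 (interval 5.01 to 10.8). The authors' deposited table gives a log2 fold change of 2.83 with an FDR of 1.42e-06, which has no replicates behind it. foxi3a, a determinant of skin ionocytes in zebrafish, went the other way, with 232 reads in the nju18-labelled library and 628 in the TU-labelled library, a ratio of 0.519 (interval 0.444 to 0.604). foxi3b and foxi2 were near the detection limit, with 10 reads in both libraries for foxi3b and with 11 (nju18-labelled) and 8 (TU-labelled) for foxi2.

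Genes of ionocytes had ratios on both sides of 1. Of 14 detected, 9 lay below 1 and 5 above 1. Among all 19796 genes past the read filter, 10380 lay below 1. Of the 14 ionocyte genes, 4 were lower by the 2-fold rule and 0 higher, beside 20.3% and 13.5% of all genes. Their median log2 ratio was -0.37. Those with the most reads went both ways. ndrg1a stood at a ratio of 1.93, atp1b1b, a sodium pump subunit gene, at 0.931, and atp6v0a1a, a proton pump subunit gene, at 0.498. Epidermis markers went both ways as well, 3 of 10 higher and 2 lower, and summed to 17457 CPM in the nju18-labelled and 11650 CPM in the TU-labelled library. The part of skin cells in the FOXI values was not tested.

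**Figure D4:**
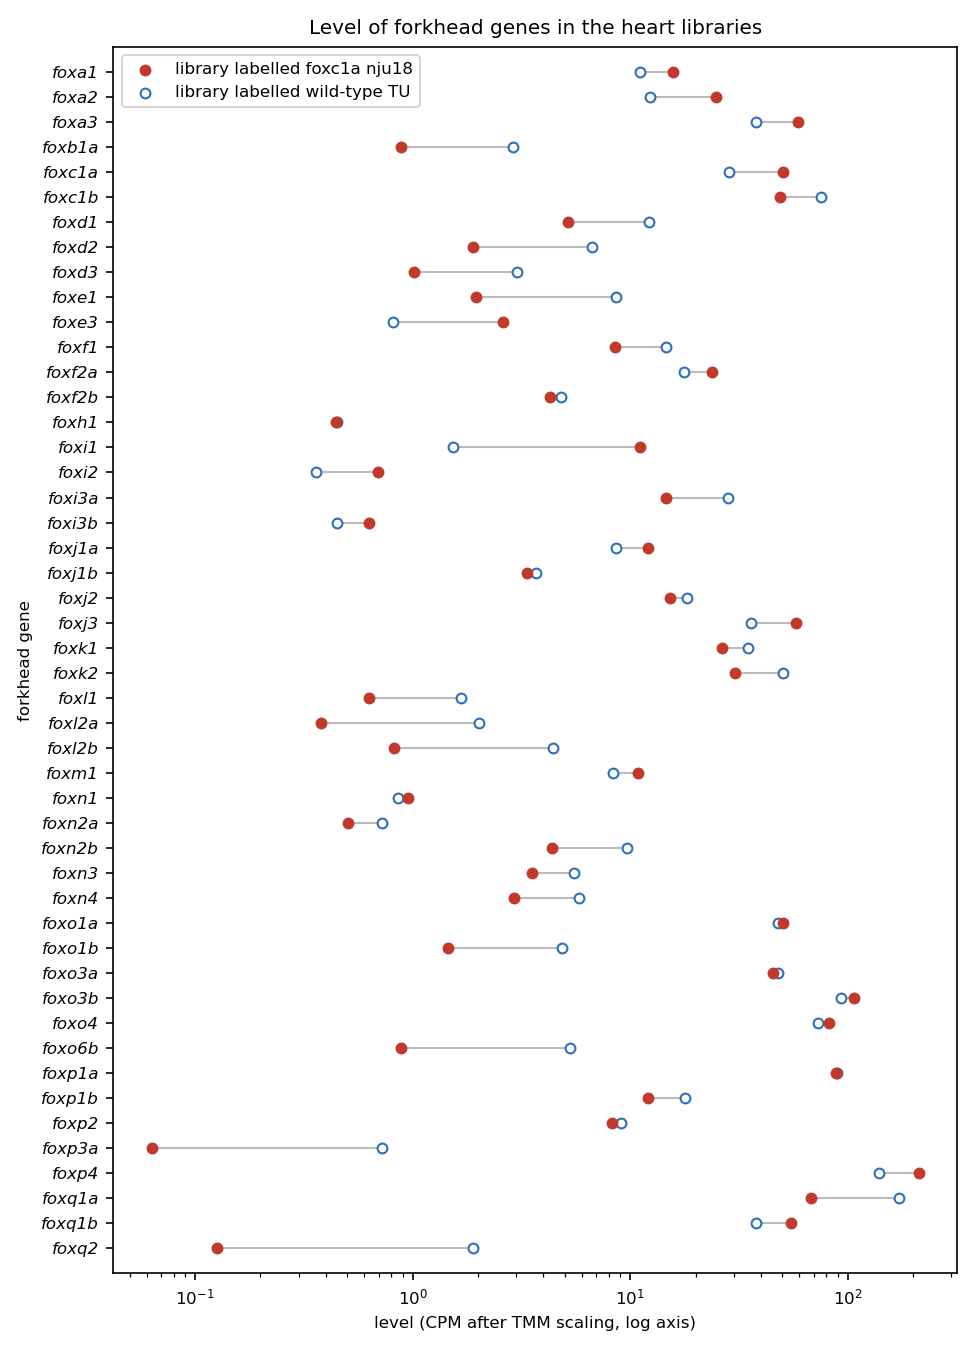
CPM after TMM scaling (horizontal log axis) of 48 detected forkhead genes, with the library labelled foxc1a nju18 as filled red points and the library labelled wild-type TU as open blue points, 1 library each. CPM is not divided by gene length. foxp4 lies farthest to the right for the nju18-labelled library, at 212 CPM, and foxq1a for the TU-labelled library, at 172 CPM. The points of foxo3b, foxo4 and foxp1a lie close together, and those of foxi1 and foxq2 far apart.

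The 4 FOXO genes of high level, foxo1a, foxo3a, foxo3b and foxo4, were close between libraries. FOXO factors are held out of the nucleus by insulin and Akt signalling and otherwise turn on genes of stress resistance and protein breakdown. foxo3b had 107 CPM in the nju18-labelled and 93.7 CPM in the TU-labelled library, a ratio of 1.14 (interval 1.07 to 1.22). foxo4 had 82.6 CPM in the nju18-labelled and 73.4 CPM in the TU-labelled library, a ratio of 1.12. The intervals of foxo1a (0.963 to 1.16) and foxo3a (0.861 to 1.04) held 1. With total-count scaling the ratios of foxo1a, foxo3b and foxo4 fell below 1. The exceptions in the subfamily were foxo6b and foxo1b, a low copy with 23 reads in the nju18-labelled library and 108 in the TU-labelled library, a ratio of 0.299 (interval 0.182 to 0.472).

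Genes around FOXO activity went in both directions. Of 30 detected FOXO pathway genes, 5 were higher by the 2-fold rule and 7 lower, beside 13.5% and 20.3% of all genes. Their median log2 ratio was -0.14. Among the most read, sod2, a mitochondrial superoxide dismutase gene and FOXO target in mammals, stood at a ratio of 1.57, sgk1, a kinase gene of insulin signalling, at 1.38 and akt2 at 0.977. pck1 and fbxo32, FOXO targets of mammalian liver and muscle, are named after their values were seen. pck1 had 8.74 CPM in the nju18-labelled and 88.4 CPM in the TU-labelled library, and fbxo32 had 9.24 CPM in both.

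foxp4 took the largest share of forkhead reads in the nju18-labelled library, and per length it ranked 3 there. Mouse Foxp1 and Foxp4 are known for roles in the developing heart. foxp4 had 3352 reads in the nju18-labelled library and 3082 in the TU-labelled library, or 212 and 139 CPM, a ratio of 1.53 (interval 1.45 to 1.60). It took 17.9% of all forkhead reads in the nju18-labelled library (exact interval 17.3% to 18.4%), against 11.2% in the TU-labelled library (10.8% to 11.5%). foxp1a had 88.8 CPM in the nju18-labelled and 89.2 CPM in the TU-labelled library, a ratio of 0.996 (interval 0.930 to 1.07). foxp1b, its paralog, had 12.2 CPM in the nju18-labelled and 17.9 CPM in the TU-labelled library, a ratio of 0.681 (interval 0.570 to 0.811). The interval of foxp2, a gene of neurons and lung in mammals, held 1 (0.725 to 1.14).

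The 2 FOXK genes and 4 of the 5 FOXN genes had ratios below 1. So did 33 of the 51 detected forkhead genes and 10380 of all 19796 genes past the read filter. FOXK factors repress autophagy genes in mammalian muscle. foxk2 had 30.3 CPM in the nju18-labelled and 50.3 CPM in the TU-labelled library, a ratio of 0.601 (interval 0.539 to 0.670). foxk1 had 26.4 CPM in the nju18-labelled and 34.8 CPM in the TU-labelled library, a ratio of 0.759 (interval 0.673 to 0.857). foxn2b passed the 2-fold rule, with 69 reads in the nju18-labelled library and 215 in the TU-labelled library, a ratio of 0.451 (interval 0.338 to 0.594). foxn3, a checkpoint gene in mammals, stood at 0.639 (interval 0.458 to 0.884), and the interval of foxn2a, with 8 reads in the nju18-labelled library and 16 in the TU-labelled library, held 1.

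foxm1, which drives genes of mitosis, had 10.9 CPM in the nju18-labelled and 8.39 CPM in the TU-labelled library, a ratio of 1.30 (interval 1.05 to 1.61). With total-count scaling the ratio of foxm1 was 1.06. Of 19 detected cell cycle targets, 16 had ratios above 1, beside 9416 of all 19796 genes past the read filter. Of these targets, 6 were higher by the 2-fold rule and 0 lower, beside 13.5% and 20.3% of all genes. Their median log2 ratio was 0.77 (0.48 with total-count scaling). top2a, the topoisomerase gene of dividing cells, had 91.8 CPM in the nju18-labelled and 48.2 CPM in the TU-labelled library, and ccnb1, a mitotic cyclin gene, had 46.0 and 30.5 CPM in that order.

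foxj1a, the master gene of motile cilia, had 12.03 CPM in the nju18-labelled and 8.66 CPM in the TU-labelled library, a ratio of 1.39 (interval 1.13 to 1.71). The interval of its paralog foxj1b held 1 (0.630 to 1.30). Motile cilia genes had a median log2 ratio of -0.32. Of 17 genes, 4 were past 2-fold upward and 2 downward, beside 13.5% and 20.3% of all genes. Of the 3 with the most reads, tuba8l2 stood at a ratio of 2.23, rfx2, a partner factor of foxj1a, at 0.302 and ccdc103, a dynein arm factor gene, at 8.60. foxj3, which acts in muscle fibre and mitochondrial programmes of the mouse, had 58.2 CPM in the nju18-labelled and 35.9 CPM in the TU-labelled library, a ratio of 1.62 (interval 1.47 to 1.78). foxj2 stood at 0.831 (interval 0.706 to 0.977).

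Among forkhead genes of immune organs, foxp3a, the gene of regulatory T cells, had 1 read in the nju18-labelled library and 16 in the TU-labelled library. Its ratio was 0.0878, with a counting interval from 0.00209 to 0.565. This gene too passed the read filter only through the TU-labelled library. foxn1, which builds the thymus epithelium, had 15 reads in the nju18-labelled library and 19 in the TU-labelled library, and its interval held 1 (0.524 to 2.30). Of 12 detected lymphocyte and thymus genes, 2 were higher and 5 lower, beside 13.5% and 20.3% of all genes. The T cell genes cd4-1 and lck were at 0 reads in both libraries. Other genes of the list went opposite ways. cd8a had 23 reads in the nju18-labelled library and 2 in the TU-labelled library, and rag1 had 2 and 38 in that order. Both cd8a and rag1 are named after their values were seen. ccl25a, a thymus chemokine gene, had 36.4 CPM in the nju18-labelled and 9.65 CPM in the TU-labelled library. The list summed to 85.9 CPM in the nju18-labelled and 72.2 CPM in the TU-labelled library. These sums and the count of 12 include cd3eap, a gene not specific to lymphocytes or thymus, at 17.0 and 12.9 CPM in that order. foxh1, a partner of Nodal signalling in the early embryo, had 7 reads in the nju18-labelled library and 10 in the TU-labelled library.

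Undetected members were foxb1b with 6 reads in the nju18-labelled library and 8 in the TU-labelled library, foxp3b with 2 and 4, foxd5 with 0 and 2, and foxo6a with 0 and 9, in the same order. foxb2 had no read in either library. Against a floor of 3 counts, a library with no read allows a level of up to 0.190 CPM in the nju18-labelled and 0.135 CPM in the TU-labelled library, for counting error only. The members closest to the detection limit on the other side were foxi3b, foxh1 and foxi2.

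Paralog pairs differed in whether both copies lay on the same side of 1. In 10 such pairs reported here with both copies detected, 7 had ratios on opposite sides of 1 with TMM scaling and 5 with total-count scaling. In 5 of the 7, the foxf2, foxi3, foxj1, foxo1 and foxo3 pairs, the interval of 1 copy held 1. The foxc1 and foxq1 pairs were 2 of these under both scalings. The foxl2 pair had nearly equal ratios, 0.187 and 0.186. In the foxo1 pair, foxo1a took 97.2% of the reads in the nju18-labelled library (exact interval 95.8% to 98.2%) and 90.8% in the TU-labelled library (89.0% to 92.4%).

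Few genes linked to FOXC function in vessels passed 2-fold. FOXC factors act with ETS factors at endothelial enhancers and, in the mouse, on the Notch ligand gene Dll4. Of 26 genes linked to FOXC in endothelium, 2 were higher by the 2-fold rule and 1 lower, beside 13.5% and 20.3% of all genes. Their median log2 ratio was 0.26 (-0.03 with total-count scaling). cdh5, fli1a and efnb2a, the genes of the list with the most reads, stood at 1.29, 1.44 and 1.64. dll4, named after its value was seen, had 122 CPM in the nju18-labelled and 27.2 CPM in the TU-labelled library, a ratio of 4.49 (interval 4.09 to 4.93). Endothelial and endocardial markers, some of them in the same list, summed to 895 CPM in the nju18-labelled and 908 CPM in the TU-labelled library.

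Genes linked to FOXC in mesoderm, valves and crest included several that were lower. Of 24 detected genes, 0 were higher by the 2-fold rule and 7 lower, beside 13.5% and 20.3% of all genes. Their median log2 ratio was 0.06 (-0.24 with total-count scaling). hand2, mef2ca and pdgfra, the genes with the most reads, stood at ratios of 1.23, 1.87 and 0.999. 4 further genes are named after their values were seen. isl1, a gene of second heart field progenitors and neurons, stood at a ratio of 0.173, tfap2b, of crest, at 0.166, and tbx18, of epicardium, at 0.288. aldh1a2, which encodes the retinoic acid synthesis enzyme, had 17.5 CPM in the nju18-labelled and 10.6 CPM in the TU-labelled library, a ratio of 1.65 (interval 1.38 to 1.97). Of 12 red cell markers, 6 were lower and 2 higher, beside 20.3% and 13.5% of all genes. These markers summed to 901 CPM in the nju18-labelled and 2615 CPM in the TU-labelled library.

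**Figure D5:**
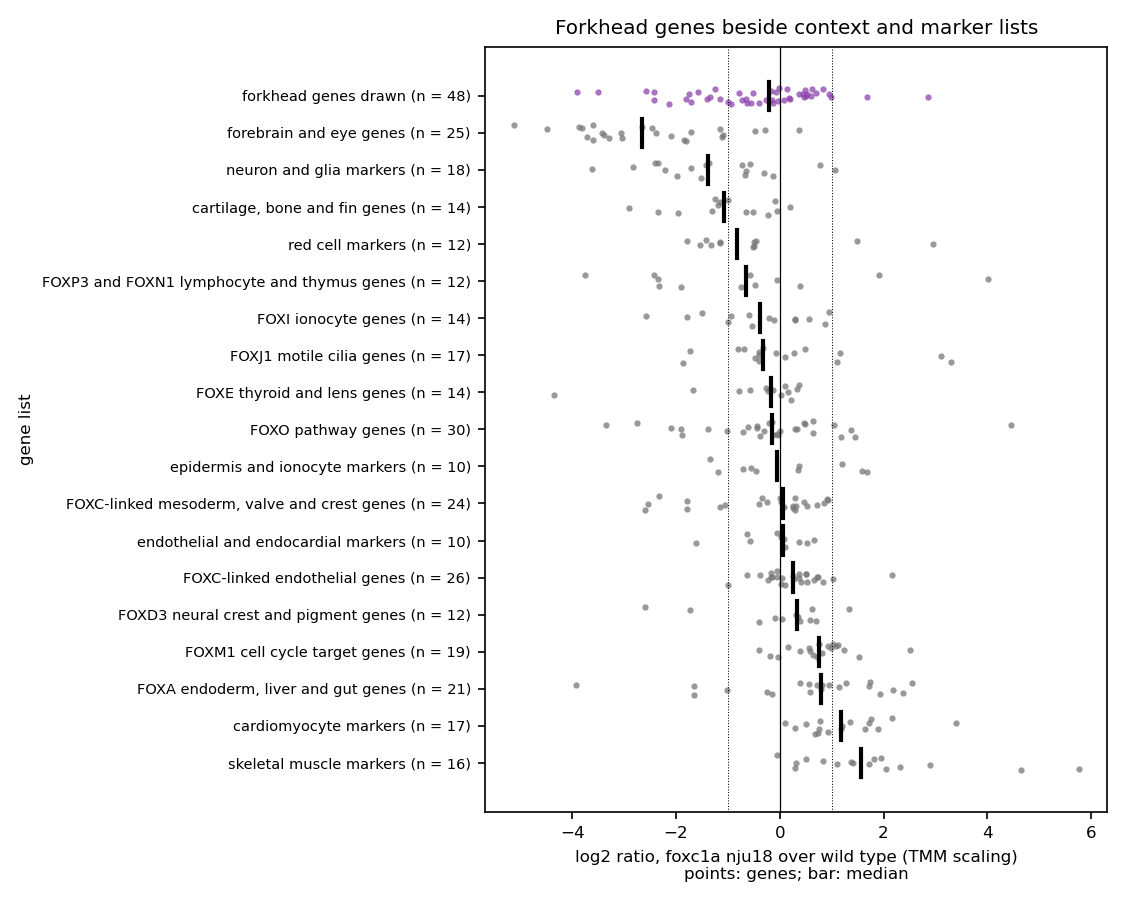
Log2 ratio, nju18-labelled over TU-labelled library with TMM scaling (horizontal axis), of every detected gene of each list (points), with list medians as black bars and dotted lines at 2-fold. The forkhead genes drawn (purple, 48 genes) have a median of -0.22 and span more than the lists of endothelial genes. Forebrain and eye genes have the lowest median, -2.65, and skeletal muscle markers the highest, 1.57, 11 of its 16 genes being past 2-fold upward.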

How the data were processed

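Per library, the authors deposited raw count values by Ensembl gene and FPKM values, with a table of their own comparison. Tools named in the submitters' processing notes are HISAT2, featureCounts, Trimmomatic and bcl2fastq, with the build GRCz11, without versions or roles. The deposited FPKM used the same gene length in both libraries (100% of genes with reads in both, within 1 base). The authors' deposited table holds a normalised signal (count divided by 0.854 for the nju18-labelled and 1.17 for the TU-labelled library), a fold ratio, its log2 and an FDR, which serves here as a q-value. All of its calls had an FDR up to 0.0499, and the smallest absolute log2 fold change called was 1.51. With 1 library per genotype, that FDR does not measure a spread between replicates.

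Counts were scaled with TMM factors of 0.904 (nju18-labelled) and 1.11 (TU-labelled) from edgeR 4.0.16 in R 4.3.3. Intervals are Clopper-Pearson from the conditional binomial of a gene's reads (scipy 1.17.1), at 95%. The labels name no molecular identifiers, so reads may include PCR copies, and the intervals and floors cover counting error only. Groups came from the genotype labels. Alternatives tried were size factors from DESeq2 1.42.0, total-count scaling, other filters, other fold rules and 1 CPM added. The members and the 18 context and marker lists were chosen with earlier results of these data known. Some members are not reported here by name or in the figures, though counts over the family include them. 4 listed symbols matched no gene. Of the members reported here, all are named, with those of foxc, foxf, foxq and foxl, those past 2-fold and those among the 10 highest by FPKM in full. Named list genes are up to 3 with the most reads over both libraries, and any other is marked as named after its value was seen. RefSeq (GRCz12tu) was matched by Entrez ID for 55 of 57 members and used for gene order and overlaps, which it shows for 26. The scripts were tested on simulated data.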

Additional observations from a re-analysis of the deposited data

How the results depend on the processing

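No paired analysis was possible because there was 1 library per genotype, and no library could be left out for the same reason. The number of forkhead genes at least 2-fold higher, 2 as reported, was 1 with 1 CPM added, with a filter of 5 CPM in either library, with the 4-fold rule and with the interval wholly beyond 2-fold, and 8 with the 1.5-fold rule. The number at least 2-fold lower, 17 as reported, was 12 with 1 CPM added and 8 with the 5 CPM filter. It was 23 with the 1.5-fold rule, 8 with the 4-fold rule and 10 with the interval wholly beyond 2-fold. In the same order, the shares of all genes that were lower were 10.6%, 12.9%, 30.6%, 7.06% and 9.38%. The shares that were higher were 7.54%, 11.3%, 24.2%, 4.0% and 6.6%. Among all genes, 33.8% passed 2-fold as reported, against 18.2% with 1 CPM added, 24.2% with the 5 CPM filter, 54.9% with the 1.5-fold rule, 11.1% with the 4-fold rule and 16% with the interval rule. These rules and filters differ in what they admit by construction. The median log2 ratio of the detected forkhead genes, -0.40 as reported, was -0.69 with total-count scaling and with the deposited FPKM, -0.66 with a total that left out genes over 1% of a library, -0.25 with 1 CPM added, -0.20 with the 5 CPM filter (34 genes) and -0.55 with the filter of 20 reads in either library (45 genes). The ratio of foxc1a, 1.78 as reported, was 1.46 with total-count scaling and with the deposited FPKM and 1.48 with the total without genes over 1%. No ratio of a forkhead gene past 2-fold changed sides of 1 under any of the scalings tried or with 1 CPM added. This was fixed in advance, since each scaling moved all ratios by a common factor of under 2-fold. Adding the same CPM to both libraries cannot move a ratio across 1. With total-count scaling 20 of 51 ratios left their counting interval, and with DESeq2 size factors 0 did, though foxa2 then passed 2-fold, giving 3 higher genes.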

Other observations

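The deposited table holds 6 further genes that the reference tables name as forkhead genes but whose deposited symbol falls outside the rule on symbols. foxa (ENSDARG00000087094) had 251 reads in the nju18-labelled library and 144 in the TU-labelled library, a ratio of 2.45 (interval 1.99 to 3.03), higher than that of foxa1, foxa2 or foxa3. The gene ENSDARG00000011609, which RefSeq names foxk2b, had 654 reads in the nju18-labelled library and 1132 in the TU-labelled library, a ratio of 0.811 (interval 0.736 to 0.894), on the same side of 1 as foxk2. zgc:162612, named foxd7, had 25 reads in the nju18-labelled library and 96 in the TU-labelled library, a ratio of 0.366 (interval 0.226 to 0.573), past 2-fold on the lower side like the detected FOXD genes. zgc:194189, named foxl2l, had 12 reads in the nju18-labelled library and 41 in the TU-labelled library, a ratio of 0.411 (interval 0.197 to 0.797). ENSDARG00000086055, named foxl3, had 0 reads in the nju18-labelled library and 12 in the TU-labelled library. With the floor of 3 counts in place of 0 its ratio was 0.351, or 2.85 times lower, and its counting interval ran from 0 to 0.505. zgc:171734, named foxr1, had 7 reads in the nju18-labelled library and 3 in the TU-labelled library.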
